A study of Mus musculus with 33 samples.

Results

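The 10 genes described here encode the enzymes that make NAD+ and the kinases that turn it into NADP+. They are Nampt, Nmrk1, Naprt, Qprt, Nmnat1, Nmnat2, Nmnat3, Nadsyn1, Nadk and Nadk2, found by exact symbol among the 55376 gene symbols counted in every library. NAD+ is the cell's main hydride carrier and the substrate of sirtuins and poly-ADP-ribose polymerases. Cells make it from nicotinamide through Nampt, from nicotinamide riboside (NR) through the riboside kinases Nmrk1 and Nmrk2, from nicotinic acid through Naprt (the Preiss-Handler route), and de novo from tryptophan, whose breakdown by the kynurenine enzymes ends at Qprt. These routes meet at the adenylylating enzymes Nmnat1 (nuclear), Nmnat2 (Golgi and cytosol, best known from axons) and Nmnat3 (mitochondrial). Nadsyn1 then amidates the product of the nicotinic acid and de novo routes, and the cytosolic kinase Nadk and the mitochondrial kinase Nadk2 phosphorylate NAD+ to NADP+.

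All libraries came from male C57BL/6 mice of 24 to 29 months. Untreated mice are called O-WT, mice given NR in the drinking water for 4 to 6 weeks O-NR, and mice kept for 2 months after NR was withdrawn O-NR-RC. Cohort 2 gave 24 libraries, with 4 O-WT and 4 O-NR libraries from each of 3 sorted populations. These were hematopoietic stem cells (HSCs), the lymphoid-committed CLPs (common lymphoid progenitors) and the myeloid GMPs (granulocyte–monocyte progenitors). Cohort 1 gave 9 HSC libraries, namely 2 from O-WT mice, 4 from O-NR mice and 3 from mice in O-NR-RC. GMPs are named common myeloid progenitors in a further label field. In cohort 2, number codes of 8 mice tie the HSC, CLP and GMP libraries of a mouse to each other. The questions were how these enzymes differ between stem and progenitor cells, and whether their RNA levels changed with NR or after its withdrawal.

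Counted reads per library ranged from 4792380 to 18213674 in cohort 2 and from 8897256 to 23816042 in cohort 1. The sorted identities were borne out by the markers of each cell type. In cohort 2, 7 HSC markers summed to 1288 to 1520 CPM (reads per 1000000 counted reads) in HSCs and to no more than 137 CPM in CLPs or GMPs. The 7 CLP markers summed to 2625 to 4227 CPM in CLPs and to no more than 52.2 CPM in HSCs or GMPs. The 7 GMP markers summed to 17372 to 20006 CPM in GMPs, 298 to 583 CPM in CLPs and 93.3 to 122 CPM in HSCs. HSCs of cohort 1 had 802 to 1369 CPM of HSC markers. Mast cell and basophil markers summed to 118 to 555 CPM in GMPs, and neutrophil markers to 11.5 to 164 CPM in CLPs. Reads on 1732 olfactory and vomeronasal receptor genes, which blood cells are not known to use, served as a measure of background and differed widely. They made up 830 to 2290 CPM in GMPs, 1438 to 4488 CPM in HSCs and 2031 to 7992 CPM in CLPs of cohort 2, and 4273 to 14680 CPM in cohort 1, where 4 libraries (O-NR 1 and 2, O-NR-RC 2 and 3) exceeded 10000 CPM. For members near background, the level per kilobase of exon is therefore also given as a multiple of that of these receptor genes. For scale, 20 genes restricted to other tissues, such as Alb, Gfap and Myh6, lay at 0.94 to 3.26 times that level as medians over the 33 libraries. Tissue-restricted genes and a member at 3 times background can thus not be told apart by level. In bulk RNA a lower CPM can come from fewer RNA molecules in each cell or from fewer cells with them, and these cannot be told apart.

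The upstream sequences of the NR kinase gene Nmrk1 and the NAD kinase gene Nadk are shown because, among members for which RefSeq (GRCm38.p6) upstream windows were used here, these were called in opposite directions between HSCs and GMPs without overlap. Windows were found for 8 of the 10 members, not for Naprt and Nadk2. Each is the 250 bases before the RefSeq start on the plus strand, chr19:18631766-18632015 for Nmrk1 and, for the RefSeq Nadk starts, chr4:155562131-155562380 and chr4:155563565-155563814. Gene positions elsewhere are from Gencode M21, whose start of Nmrk1, chr19:18631950, lies inside this window. Capitals mark matches on either strand to the core of a PU.1 site, GAGGAAGT, or an E-box, CACGTG.
Nmrk1: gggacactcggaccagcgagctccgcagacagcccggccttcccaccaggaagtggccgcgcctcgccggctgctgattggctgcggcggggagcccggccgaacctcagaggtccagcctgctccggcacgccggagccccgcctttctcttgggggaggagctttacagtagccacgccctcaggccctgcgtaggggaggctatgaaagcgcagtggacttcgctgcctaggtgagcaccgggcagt
Nadk, upstream start: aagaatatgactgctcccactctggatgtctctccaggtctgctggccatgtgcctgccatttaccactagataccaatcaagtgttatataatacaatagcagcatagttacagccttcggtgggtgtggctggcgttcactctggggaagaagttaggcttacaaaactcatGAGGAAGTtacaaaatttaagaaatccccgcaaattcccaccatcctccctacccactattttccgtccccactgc
Nadk, downstream start: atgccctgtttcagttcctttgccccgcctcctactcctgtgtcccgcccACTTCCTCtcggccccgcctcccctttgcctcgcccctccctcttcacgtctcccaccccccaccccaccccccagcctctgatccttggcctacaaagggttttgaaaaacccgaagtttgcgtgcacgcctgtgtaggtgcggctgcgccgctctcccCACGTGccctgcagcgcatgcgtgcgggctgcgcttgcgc
Both Nadk windows hold the PU.1 letters, 76 bases before the upstream start on the same strand and 200 bases before the downstream start on the opposite strand, and 2.44% of all 32851 such windows hold them. The E-box lies 40 bases before the downstream Nadk start and is held by 6.02% of windows. Nmrk1 holds no exact match to these letters, but its window does hold AGGAAGT, the PU.1 letters without the first. Nmrk1 holds no AGATAA, a site of GATA factors that 9.99% of windows hold. It also lacks TGTGGT, a site of RUNX factors that 14% of windows hold. None of the 10 member windows holds either, and Nmnat2 holds the PU.1 letters 226 bases before its RefSeq start, which lies downstream of its Gencode M21 start. A match is a description of these letters and not evidence of binding.

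Per kilobase of exon, the kinases and Nampt stood at the head of the pathway in each cell type. In HSCs of cohort 2 the order of mean CPM per kb (± SD, n = 8) was Nadk2 at 19.9 ± 1.7, Nadk at 15.4 ± 0.86, Nampt at 11.6 ± 1.2, then Naprt at 5.72 ± 0.50, and neither of the kinases nor Nampt overlapped the gene after it in that order. From Naprt downwards, through Nmnat3, Nadsyn1, Nmnat1, Nmrk1, Qprt and Nmnat2, the ranges of neighbouring genes overlapped. In CLPs the order was headed by Nadk at 13 ± 1.6 and Nampt at 10.9 ± 1.5, whose ranges overlapped, and Nadk2 followed at 4.88 ± 0.47. GMPs had Nadk at 25.3 ± 2.3, clear of Nampt at 13.4 ± 2.1 and Nadk2 at 12.2 ± 0.18, which overlapped each other. The lowest member was Nmnat2 in HSCs and GMPs and Qprt in CLPs, none of them separated from its neighbour.

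**Figure D1:**
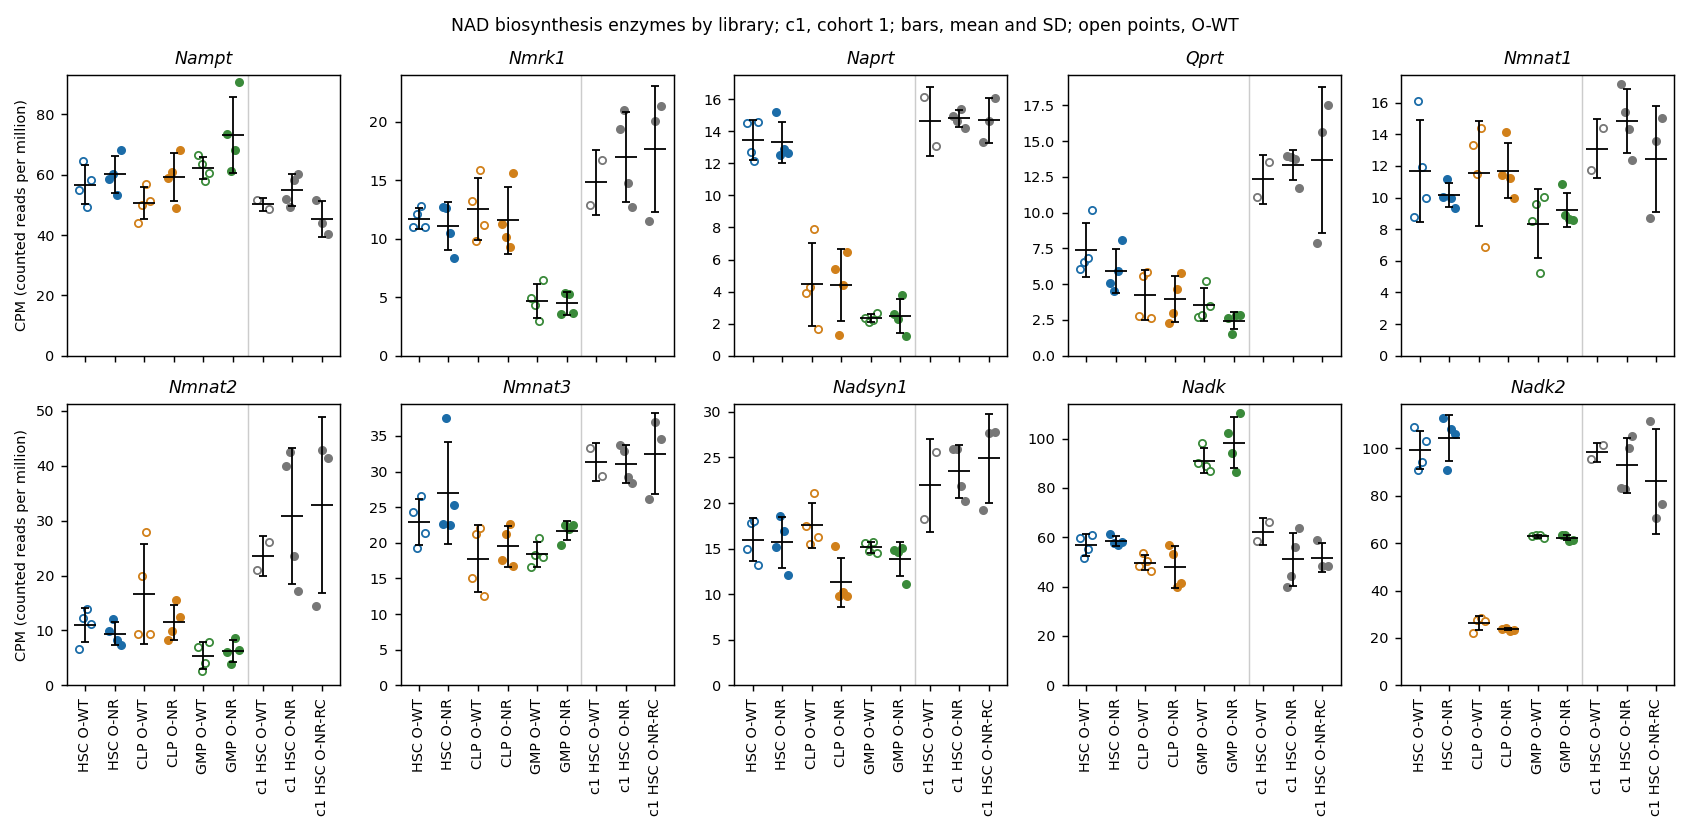
CPM (linear axes from 0) of the 10 enzymes in each of 33 libraries, by group, with mean and SD; open points are O-WT. Nadk2 sits at 90.7 to 113 CPM in HSCs of cohort 2 against 22 to 28.6 in CLPs, Nadk is highest in GMPs, and the O-WT and O-NR points of a cell type intermingle for most genes.

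Cell types were compared over the 24 libraries of cohort 2 (HSC, CLP and GMP, 8 each) with edgeR's quasi-likelihood test, averaged over both treatments, and a gene was called at a Benjamini-Hochberg adjusted p below 0.05 among all 22573 tested genes. All 10 members passed the expression filter of more than 3 CPM in at least 4 libraries. Of these, 5 were called higher and none lower in HSCs than in CLPs, 5 higher and 2 lower in HSCs than in GMPs, and 2 higher and 5 lower in CLPs than in GMPs. The background is high: 44.1% of all genes were called between HSCs and CLPs, 48.1% between HSCs and GMPs and 69.9% between CLPs and GMPs (higher and lower in the first cell type 23.9% and 20.2%, 27.1% and 21%, and 43.1% and 26.8%), beside which 5, 7 and 7 of the 10 members were called, and nothing particular to these enzymes is read from the counts. CPM ranges did not overlap for 2, 4 and 3 members, and for 18.9%, 33.5% and 22.8% of all genes. The median log2 fold change of the members was 0.34, 0.24 and −0.24 in these comparisons, beside −0.13, 0.28 and 0.41 for all tested genes. Scaling moved these values. TMM scaling (trimmed mean of M values), used here, shifted log2 fold changes by 0.13 for HSCs against CLPs, by −0.29 for HSCs against GMPs and by −0.42 for CLPs against GMPs relative to CPM. Of the genes called, 54.1%, 56.3% and 61.7% were higher in the first cell type, which became 49.1%, 72.0% and 78.7% when libraries were scaled by their total reads and 36.6%, 63.4% and 77.6% with upper quartile scaling. With DESeq2 the shares were 51.1%, 42.8% and 51.9%. The members' own split turned with the scaling: for CLPs against GMPs it was 4 higher and 3 lower with upper quartile scaling and with total reads, and 5 higher and 2 lower with TMM factors from genes over 30 CPM. For HSCs against GMPs it was 6 higher and 2 lower with total reads, 7 higher and 1 lower with genes over 30 CPM, and 3 higher and 3 lower with DESeq2.

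The mitochondrial NAD kinase gene Nadk2 (chr15:9071260-9110891, mm10, plus strand) had the largest fold of the 10 members between HSCs and CLPs. Its level was lowest 90.7, median 105 and highest 113 CPM over the 8 HSC libraries, 22, 24 and 28.6 CPM over the 8 CLP libraries, and 61.1, 63.2 and 63.4 CPM over the 8 GMP libraries. These ranges did not overlap, with HSCs highest and CLPs lowest. Nadk2 was 4.54-fold higher in HSCs than in CLPs (log2 fold change 2.18, SE 0.15, edgeR adjusted p = 1.1e-18), and this held under 11 of 11 other scalings, filters, tests and sample subsets, at 1.89 to 2.34. In CLPs it fell by 1.74 on the log2 scale relative to GMPs (SE 0.15, edgeR adjusted p = 1.1e-14). Between HSCs and GMPs the difference was smaller, 0.45 (SE 0.14, edgeR adjusted p = 0.0082), ranged from 0.25 to 0.83 over the alternatives and passed the threshold in 6 of 11.

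Its cytosolic counterpart Nadk (chr4:155562378-155591001, plus strand) was ordered differently. The lowest, median and highest values were 51.7, 58.0 and 61.4 CPM in HSCs, 39.8, 49.3 and 56.8 CPM among CLPs, and 86.5, 92.3 and 110 CPM among GMPs. GMPs lay above both other cell types without overlap, while HSCs and CLPs overlapped. Nadk was lower in HSCs than in GMPs by a log2 fold change of −0.98 (SE 0.15, edgeR adjusted p = 9.7e-08) and in CLPs than in GMPs by −1.36 (SE 0.15, edgeR adjusted p = 3.8e-11), each called under 11 of 11 alternatives. The difference of 0.38 between HSCs and CLPs (SE 0.15, edgeR adjusted p = 0.033) was called under only 4 of 11, and no longer when any of O-WT 3 of the CLPs, O-NR 1, O-NR 3, O-WT 1 or O-WT 4 of the HSCs was left out (0.30 to 0.36).

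A ratio within a library does not depend on how libraries are scaled. The ratios tested here and below were chosen after the values had been seen. Their p-values therefore describe patterns already known and are not independent support for them. The ratio of Nadk2 to Nadk per kb was 1.29 ± 0.077 (SD, n = 8) in HSCs. CLPs had 0.379 ± 0.048 and GMPs 0.487 ± 0.041, so that the mitochondrial kinase RNA was the more abundant of the pair in HSCs alone among the cell types of cohort 2. It was higher in HSCs than in CLPs in 8 of 8 mice, by 3.43-fold on average, and higher than in GMPs in 8 of 8 mice, by 2.66-fold (two-sided exact permutation test within mice, p = 0.0078 for each, the smallest 8 mice can give, and adjusted p = 0.012 over 9 ratio tests). CLPs were lower than GMPs in 7 of 8 mice (exact permutation p = 0.016, adjusted p = 0.020). In the 9 HSC libraries of cohort 1 the ratio was 1.07 to 1.53 with a median of 1.20, above every CLP and GMP library of cohort 2.

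Of the entry enzymes, Naprt, which takes nicotinic acid into the Preiss-Handler route, was highest in HSCs. It measured lowest 12.1, median 12.8 and highest 15.2 CPM in HSCs, 1.28, 4.36 and 7.93 CPM among CLPs, and 1.25, 2.33 and 3.76 CPM among GMPs. No CLP or GMP library reached the lowest HSC library. Naprt was 3.59-fold higher in HSCs than in CLPs (log2 fold change 1.84, SE 0.23, edgeR adjusted p = 8.7e-10) and 4.66-fold higher than in GMPs (2.22, SE 0.23, edgeR adjusted p = 2.2e-12), under 11 of 11 alternatives in each case. In CLPs and GMPs it rested on 15 to 56 reads and lay at 1.54 to 6.11 times background, whereas HSCs were at 6.87 to 24.5 times background. With olfactory receptor reads as a covariate the differences were 1.85 and 2.22, both called. The CLP level exceeded that of GMPs by 0.38 (95% interval −0.10 to 0.86, not called), which became a call at 0.85 with scaling by total reads. Of Naprt's exon bases, 11.8% are shared with Eef1d on the same strand (chr15:75890956-75894481, mm10, minus strand), and the counts do not say how such reads were treated. Relative to Nampt, Naprt per kb was 0.499 ± 0.065 in HSCs against 0.174 ± 0.081 for CLPs and 0.0789 ± 0.025 for GMPs, higher in HSCs in 8 of 8 mice against either (exact permutation p = 0.0078, adjusted p = 0.012).

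Nmrk1 (chr19:18631950-18652428, plus strand), the kinase that admits NR itself, was lowest in GMPs. Its values were lowest 8.37, median 11.6 and highest 12.8 CPM in HSCs, 9.24, 11.2 and 15.9 CPM among CLPs, and 2.98, 4.64 and 6.46 CPM among GMPs. GMPs lay below both others without overlap, and HSCs and CLPs overlapped. The gene was 2.06-fold higher in HSCs than in GMPs (log2 fold change 1.04, SE 0.18, edgeR adjusted p = 1.2e-06) and 1.98-fold higher in CLPs than in GMPs (0.99, SE 0.18, edgeR adjusted p = 5.5e-06), under 11 of 11 alternatives. Between HSCs and CLPs the log2 difference was 0.05 with a 95% interval of −0.29 to 0.40. Levels per kb were 4.16 to 11.8 times background in HSCs, 2.99 to 7.68 times in CLPs and 3.56 to 8.07 times in GMPs. The ratio of Nmrk1 to Nampt per kb was 0.271 ± 0.052 in HSCs against 0.303 ± 0.064 for CLPs and 0.0950 ± 0.030 for GMPs. It was lower in GMPs than in the HSCs or the CLPs of 8 of 8 mice (exact permutation p = 0.0078, adjusted p = 0.012). HSCs and CLPs were not separated, with HSCs lower in 5 of 8 mice (exact permutation p = 0.33, adjusted p = 0.33). This ratio also differed with background within HSCs. In cohort 1 it was 0.510 to 0.727 in the 4 libraries with more than 10000 CPM of receptor reads and 0.290 to 0.471 in the other 5. The part of background in the difference between cell types was not tested. The other riboside kinase gene, Nmrk2, known from muscle, stayed under the filter in cohort 2, at 0.165 to 7.11 CPM and a median of 1.20 to 1.54 times background by cell type.

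Nampt (chr12:32819545-32853349, plus strand), the rate-limiting enzyme of the nicotinamide salvage route, had overlapping ranges in the 3 cell types. It measured lowest 49.4, median 58.5 and highest 68.2 CPM in HSCs, 44.1, 54.1 and 68.2 CPM among CLPs, and 58.1, 65.0 and 90.7 CPM among GMPs. It was called lower in HSCs than in GMPs (log2 fold change −0.49, SE 0.14, edgeR adjusted p = 0.0027) and lower in CLPs than in GMPs (−0.71, SE 0.14, edgeR adjusted p = 2.7e-05). With TMM factors from genes over 30 CPM these were −0.08 and −0.17 and not called, so the size of this difference depends on the scaling.

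Qprt, the last enzyme of the de novo route before it joins the others, was low in all cell types. The lowest, median and highest values were 4.54, 6.29 and 10.2 CPM in HSCs, 2.27, 3.84 and 5.84 CPM among CLPs, and 1.54, 2.83 and 5.24 CPM among GMPs, from 20 to 147 reads. HSCs overlapped both others. Qprt was called higher in HSCs by 0.90 on the log2 scale against CLPs (SE 0.24, edgeR adjusted p = 0.0015) and by 0.90 against GMPs (SE 0.23, edgeR adjusted p = 0.00097), each in 10 of 11 alternatives. Its levels were 2.66 to 10.4 times background in HSCs, 2.27 to 9.18 times in GMPs and 1.57 to 3.18 times in CLPs, the last within the range of tissue-restricted genes, and with olfactory receptor reads as a covariate the differences were 0.84 and 0.96, both called. The highest HSC value was that of O-WT 4, which among the HSC libraries of cohort 2 also had the most reads on 6 B and plasma cell markers (453 CPM), and without it the differences were 0.77 and 0.77, both called.

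**Figure D2:**
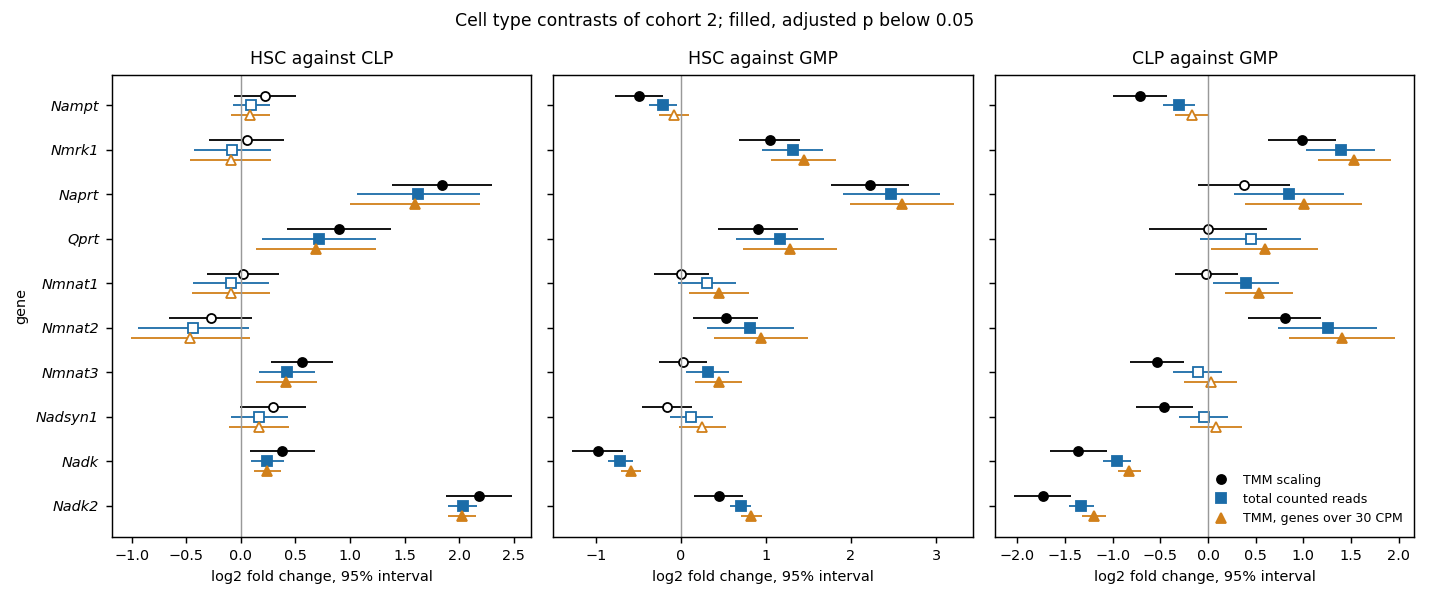
Log2 fold changes with 95% intervals for the 10 enzymes between the cell types of cohort 2 (8 libraries each) under TMM scaling, scaling by total counted reads and TMM factors from genes over 30 CPM; filled symbols have an adjusted p below 0.05. Nadk2, Naprt, Nadk and Nmrk1 keep their direction where called with all 3 scalings, while Nmnat3 and Nadsyn1 of CLPs against GMPs move to about 0.

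**Figure D3:**
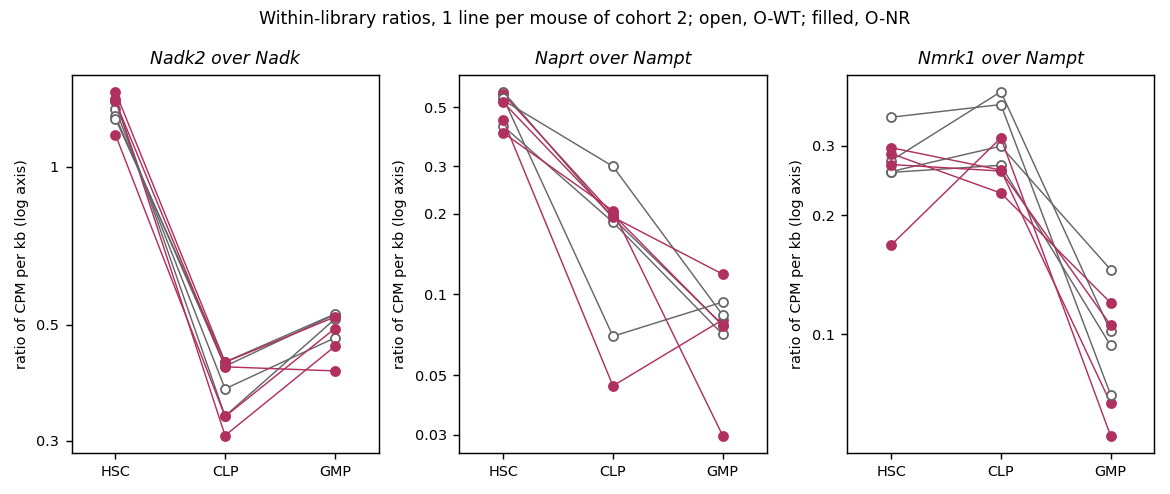
Ratio of CPM per exon kb (log axes) within each library, with the HSC, CLP and GMP libraries of a mouse joined by a line; open points are O-WT and filled points O-NR. Nadk2 over Nadk falls from 1.15 to 1.39 in HSCs to 0.307 to 0.424 in CLPs, and Nmrk1 over Nampt is lowest in the GMPs of every mouse.

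The NMN adenylylating enzymes and Nadsyn1 act where the routes join. Nmnat1 had 8.76 to 16.1 CPM in HSCs, 6.88 to 14.4 among CLPs and 5.24 to 10.8 among GMPs and was called in none of the 3 comparisons, with log2 differences of 0.02 (95% interval −0.31 to 0.35), 0.01 (−0.32 to 0.33) and −0.02 (−0.35 to 0.31). It was called higher in CLPs than in GMPs under 3 of 11 alternatives, at 0.36 with upper quartile scaling, 0.40 with total reads and 0.53 with TMM factors from genes over 30 CPM, and with the latter also higher in HSCs than in GMPs, at 0.44 (edgeR adjusted p = 0.026). Its level was 5.71 to 12.6 times background in HSCs, 3.38 to 13 times in CLPs and 8.0 to 21.7 times in GMPs. Nmnat3 was called higher in HSCs, at 19.3 to 37.5 CPM, than in CLPs, at 12.5 to 22.6 CPM (0.56, SE 0.14, edgeR adjusted p = 0.0010), in 11 of 11 alternatives. Its call in CLPs against GMPs, −0.53 (SE 0.14, edgeR adjusted p = 0.0011), was lost with scaling by total reads (−0.11) and turned to 0.03 with TMM factors from genes over 30 CPM. Nadsyn1 behaved likewise, at −0.46 in CLPs against GMPs (SE 0.15, edgeR adjusted p = 0.0064), −0.05 with total reads and 0.09 with genes over 30 CPM. It was not called in HSCs against CLPs (0.29, edgeR adjusted p = 0.10) or HSCs against GMPs (−0.16, edgeR adjusted p = 0.35). Each of these was called under 1 of 11 alternatives, and the former also when any of 5 single libraries was left out.

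Nmnat2 rose and fell with the background of the libraries, and whether its reads come from Nmnat2 RNA was not tested. Its CPM spanned 17.0-fold over the 33 libraries, from 2.53 to 42.9, but relative to the olfactory receptor level per kb it stayed between 2.57 and 5.5 in all of them. By comparison, Nadk2 ranged from 3.98 to 84.8 times background and Nadk from 4.39 to 180 times. The calls of Nmnat2, higher in HSCs (0.53, SE 0.19, edgeR adjusted p = 0.019) and in CLPs (0.80, SE 0.19, edgeR adjusted p = 0.00034) than in GMPs, were both lost with the olfactory receptor reads as a covariate (0.30, edgeR adjusted p = 0.21, and 0.32, edgeR adjusted p = 0.36). The former was also lost when any of 6 single libraries was left out, GMP O-NR 1, 2 or 4, GMP O-WT 2 or 3 or HSC O-NR 2 (0.36 to 0.48). In cohort 1 its highest values, 40.0 to 42.9 CPM, were in the 4 libraries with more than 10000 CPM of receptor reads, and the other 5 had 14.4 to 26.1 CPM.

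**Figure D4:**
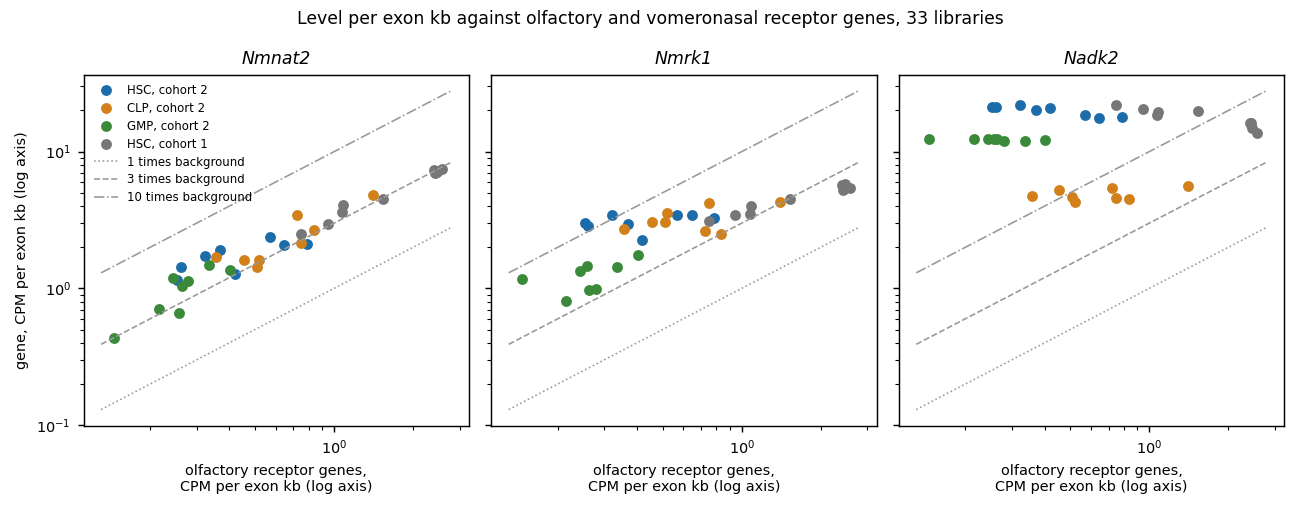
CPM per exon kb of Nmnat2, Nmrk1 and Nadk2 against that of olfactory and vomeronasal receptor genes in 33 libraries (log axes), coloured by cell type and cohort; grey lines mark 1, 3 and 10 times the receptor level. Nmnat2 runs along the line at 3 times background, between 2.57 and 5.5, whereas Nadk2 separates by cell type at any background.

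The genes whose log2 CPM was most like that of the members with the widest range between cell types were read out over the 24 libraries of cohort 2, which share cell type and depth, so the correlations describe the cell type pattern. Naprt was most like Samd14 (Pearson r = 0.970), Aldh1l1 (r = 0.969) and Amigo2 (r = 0.967). For Nadk2 these were Sord (r = 0.990), the sorbitol dehydrogenase gene, Ocrl (r = 0.988) and Cpq (r = 0.987), and for Nmrk1 they were Dlg2 (r = 0.961), Phlpp1 (r = 0.942) and Lamc1 (r = 0.940).

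Of 25 further genes of NAD metabolism, 22 were tested between cell types. Tdo2, Nmrk2 and Slc22a13 did not pass the filter. Against CLPs, 3 were called higher and 12 lower in HSCs, against GMPs 5 higher and 7 lower, and CLPs had 12 higher and 3 lower than GMPs. The same percentages of all genes apply as above. The largest called differences were these: Haao, which makes the substrate of Qprt, had a mean of 3.37 CPM in HSCs against 22.9 for CLPs and 13.5 for GMPs, and Kmo, the kynurenine hydroxylase, 6.26, 39.5 and 7.47 CPM. Haao was lower in HSCs than in CLPs by a log2 fold change of −2.67 (SE 0.18, edgeR adjusted p = 3.9e-19) and Kmo by −2.60 (SE 0.18, edgeR adjusted p = 3.6e-19), under 11 of 11 alternatives. Thus the values of Haao and Qprt, consecutive enzymes of the de novo route, were ordered oppositely between HSCs and CLPs. The lower level of each, Haao in HSCs as a median and Qprt in CLPs, lay within the range of tissue-restricted genes. In HSCs of cohort 2 Haao lay at a median of 1.59 times background and Kmo at 2.88 times, and Noct, described next, at 1.26 times. Slc29a1, an equilibrative nucleoside transporter, had a mean of 12.5 CPM in HSCs against 61.5 for CLPs and 43.1 for GMPs, lower in HSCs by −2.19 against CLPs (SE 0.16, edgeR adjusted p = 7.0e-18) and by −2.06 against GMPs (SE 0.16, edgeR adjusted p = 4.9e-17). Noct, an NADPH phosphatase, had a mean of 6.46 CPM in HSCs against 14.3 for CLPs and 24.7 for GMPs and was lower in HSCs than in GMPs by −2.33 (SE 0.18, edgeR adjusted p = 2.7e-17).

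NR treatment changed none of the members past the threshold. In HSCs, CLPs and GMPs of cohort 2 (4 O-NR against 4 O-WT each) edgeR called 0 of 10, 0 of 10 and 0 of 8 tested members, and 0 at an unadjusted p below 0.05. Naprt and Qprt were under the filter in the GMP fit. DESeq2 called none either. Over all genes 0% were called in each cell type, while 0.777%, 0.412% and 0.986% had an unadjusted p below 0.01 and 4.06%, 3.21% and 4.83% a p below 0.05. With 4 libraries a group the test recovered 57% of genes changed by 1 on the log2 scale in data simulated for the HSC comparison, so smaller changes could go uncalled. In the HSCs the 6 B and plasma cell markers summed to 46.7 to 453 CPM in O-WT and 14.5 to 33.5 CPM in O-NR, without overlap, and their part in the HSC values was not tested. None of the further pathway genes was called either.

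The NR kinase gene Nmrk1 had 11, 12.1, 12.8 and 11 CPM in the O-WT HSCs and 12.7, 12.6, 10.5 and 8.37 CPM in the O-NR HSCs. The groups overlapped, with a log2 fold change of −0.04 and a 95% interval of −0.43 to 0.35. In CLPs the difference was 0.03 (−0.53 to 0.59) and in GMPs −0.08 (−0.63 to 0.48).

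Nampt had the same sign in each cell type of cohort 2 without passing the test in any. CLPs had 44.1, 50.0, 57.0 and 51.2 CPM in O-WT and 59.0, 60.8, 48.9 and 68.2 CPM in O-NR, overlapping groups (0.37, 95% interval −0.00 to 0.73, edgeR adjusted p = 1.0, unadjusted p = 0.051). GMPs had 66.5, 63.4, 58.1 and 60.7 CPM in O-WT and 73.4, 61.2, 68.1 and 90.7 CPM in O-NR (0.21, −0.02 to 0.44, edgeR adjusted p = 1.0, unadjusted p = 0.0695). In HSCs the difference was 0.13 (−0.10 to 0.37, edgeR adjusted p = 0.99).

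Nadsyn1 in CLPs was the only member whose O-WT and O-NR ranges did not overlap in cohort 2. O-WT libraries had 17.5, 15.5, 21.1 and 16.3 CPM and O-NR libraries 15.3, 9.84, 10.2 and 9.85 CPM, so that each O-NR library lay under the lowest O-WT library. The difference of −0.50 (95% interval −1.0 to 0.00) was not called (edgeR adjusted p = 1.0, unadjusted p = 0.051), and 2.97% of all genes tested in CLPs had ranges without overlap. The corresponding values were 0.03 (−0.32 to 0.37) in HSCs and −0.15 (−0.42 to 0.11) in GMPs.

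The kinases were not called either. Nadk2 differed by 0.12 (−0.15 to 0.39) in HSCs, −0.02 (−0.41 to 0.37) in CLPs and −0.04 (−0.19 to 0.11) in GMPs, and Nadk by 0.08 (−0.15 to 0.31), 0.08 (−0.29 to 0.45) and 0.08 (−0.11 to 0.28). Over the other members the estimates lay between −0.32 and 0.30, with Nmnat3 at 0.26 (−0.07 to 0.59), 0.30 (−0.15 to 0.75) and 0.21 (−0.02 to 0.43) and Naprt in CLPs the least certain at 0.19 (−0.80 to 1.19). No member was called for a difference of the NR effect between cell types, where the smallest unadjusted p was 0.077, and 0.00443%, 0.00443% and 0% of all genes were called for HSCs and CLPs, HSCs and GMPs, and CLPs and GMPs.

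**Figure D5:**
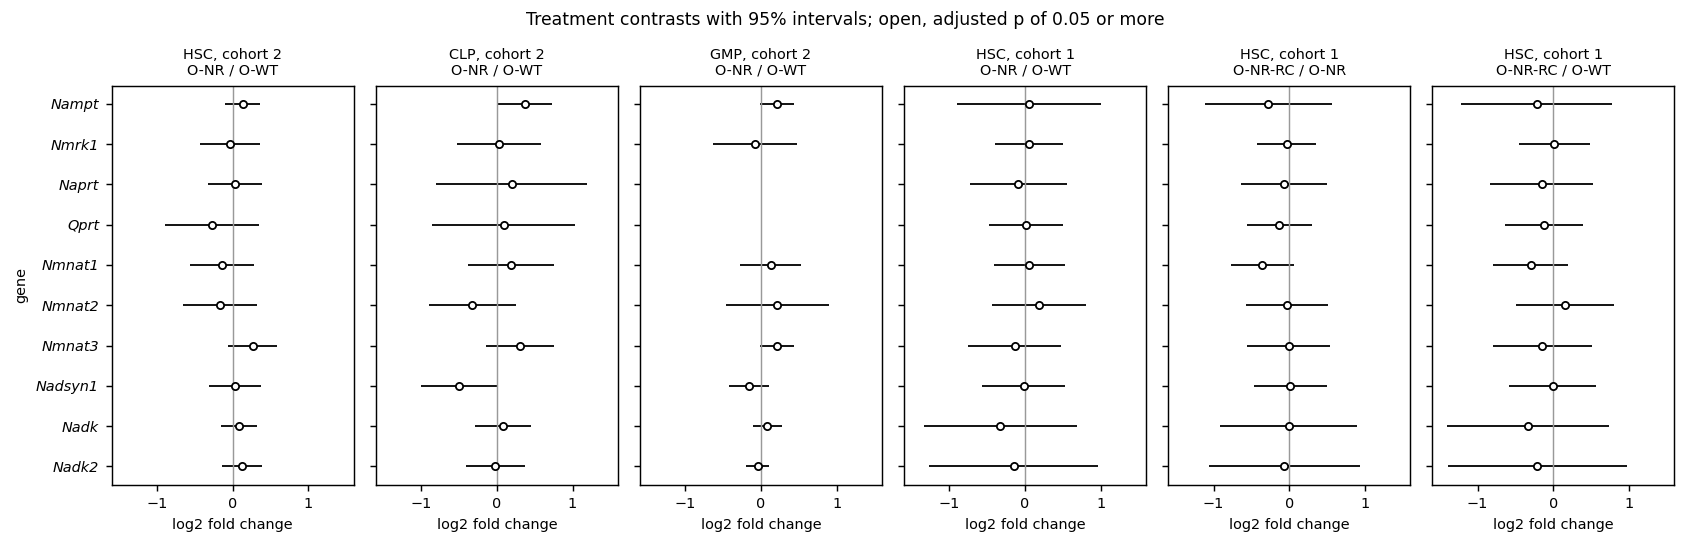
Log2 fold changes with 95% intervals of the treatment contrasts in cohort 2 (4 against 4 libraries) and cohort 1 (9 libraries); all symbols are open because no adjusted p was below 0.05, and Naprt and Qprt were not tested in GMPs. Nadk2 in GMPs has one of the narrowest intervals, −0.19 to 0.11, and cohort 1 the widest.

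Withdrawal of NR was examined in HSCs of cohort 1. None of the 10 members was called for O-NR against O-WT, O-NR-RC against O-NR or O-NR-RC against O-WT (edgeR), none had an unadjusted p below 0.05, and 0% of all genes were called in each. With 1 RUVr factor, a hidden factor estimated from the residuals, calls appeared: Nadk fell short of O-WT in O-NR (−0.43, edgeR adjusted p = 0.011), and Nadk (−0.45, edgeR adjusted p = 0.0078), Nadk2 (−0.39, edgeR adjusted p = 0.011) and Nampt (−0.32, edgeR adjusted p = 0.024) were lower in O-NR-RC than in O-WT, among 7.71% and 11.9% of all genes called. Unadjusted p-values were below 0.05 for 0.546%, 0.291% and 0.795% of genes, and below 0.01 for 0.048%, 0.036% and 0.078%. Nadk2 had 95.5 and 101 CPM in O-WT, 83.3, 82.7, 100 and 105 CPM in O-NR, and 111, 70.4 and 76.4 CPM in O-NR-RC. Its lower values in O-NR and O-NR-RC were those of the 4 libraries with the highest background. Nadk followed the same split, with 58.6 and 66.1 CPM in O-WT, 39.9, 44.4, 56.0 and 63.8 CPM in O-NR, and 58.8, 48.3 and 48.3 CPM in O-NR-RC. Nmrk1 ran the other way, at 12.8 and 16.8 CPM in O-WT, 19.3, 21, 14.8 and 12.7 CPM in O-NR, and 11.5, 20.1 and 21.4 CPM in O-NR-RC, its highest values being those of the same 4 libraries. Relative to background Nmrk1 was at 2.11 to 4.14 times in these 9 libraries, Nampt at 3.23 to 13.6 times, Nadk at 4.39 to 20.9 times and Nadk2 at 5.34 to 29 times. For O-NR-RC against O-NR the estimates were −0.06 for Nadk2 (95% interval −1.06 to 0.93), −0.01 for Nadk (−0.91 to 0.89), −0.27 for Nampt (−1.11 to 0.56) and −0.04 for Nmrk1 (−0.43 to 0.36). The values of the kinases and Nampt moved with the processing and with single libraries. Under 11 alternatives of scaling, filter, test or samples Nadk2 ranged from −0.17 to 0.30. Nadk ranged from −0.03 to 0.24 and Nampt from −0.32 to −0.01. Leaving out 1 library at a time moved Nadk2 from −0.80 (without O-NR-RC 1) to 0.21 (without O-NR-RC 2), Nadk from −0.56 (without O-NR-RC 1) to 0.27 (without O-NR 4) and Nampt from −0.83 (without O-NR-RC 1) to −0.05 (without O-NR-RC 3), so no direction is read from them. In the data simulated for this comparison only 2% of genes changed by 1 on the log2 scale were recovered, so most such changes went uncalled there. The simulation drew each gene independently, with no background shared by the genes of a library. Of its unchanged genes 0.983% had an unadjusted p below 0.01, against 0.036% of all genes in the real data. The share recovered therefore need not hold for the real libraries. The changed genes were drawn at random from all tested genes, so this share is not specific to the members. Intervals differed between members: that of Nmrk1 (−0.43 to 0.36) holds no change of 1, while those of Nadk2 and Nampt reach below −1. Nmrk1 lay at only 2.11 to 4.14 times background here, so its interval describes the counted reads and does not exclude such a change of Nmrk1 RNA. The part of background in it was not tested. Without the 4 high-background libraries 1 O-NR-RC library is left, and the difference of Nadk2 between O-NR-RC and O-WT was 0.49, against −0.21 with all 9 libraries. This is given as a value with no test.

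Over the 14 HSC libraries of both cohorts, with a term for cohort, the estimates of O-NR against O-WT lay between −0.14 and 0.12, with intervals from −0.54 to 0.50, and 0 of 10 members were called by edgeR, as were 0% of all genes. Neither was any member called for a difference of the NR effect between the cohorts.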

How the data were processed

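The authors trimmed reads with Trim Galore (0.4.3) and cutadapt (1.12), mapped them to mm10 using STAR and the Gencode M22 annotation, and deposited whole-number counts per gene from featureCounts. The strand and multimapping settings are not given in the sources used here. CPM values are these counts per 1000000 counted reads. Positions and exon lengths are from Gencode M21 (mm10). Each library is counted once, as 1 sample; p-values measure the spread between these samples. No pair of libraries agreed within sampling noise (lowest chi-square per degree of freedom 1.83).

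Tests used edgeR 4.0.16 (R 4.3.3), TMM scaling, more than 3 CPM in at least 4 libraries (2 for cohort 1 and both cohorts) and a quasi-likelihood F test, checked on simulated data. Alternatives were DESeq2 1.42.0, other scalings and filters, a covariate, 1 RUVr factor, blocks and libraries left out. The paper's reporting summary names RUV, beside STAR and edgeR, among its RNA-seq tools, without saying in which comparisons it was used. Same-mouse libraries of 2 cell types did not deviate together (mean r −0.025, from −0.47 to 0.35, 24 pairs). The mouse pairing comes from numbers shared by cell types. The members and lists were chosen with earlier results of these data known, and the ratios and tissue-restricted genes after seeing the values. All members are named, and of the further genes those with the 6 largest called differences between cell types or not tested.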

Additional observations from a re-analysis of the deposited data

Results flagged for a closer look

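In groups of 4 libraries, a library was singled out where its distance to the nearest of the others exceeded Dixon's 95% limit of the group's range. This was the case in 5 of 70 combinations of gene and group, and chance gives about 1 in 20. Naprt was 15.2 CPM in O-NR 1 of the HSCs of cohort 2, with 12.5 to 12.9 CPM in the others. Nmnat1 was 10.8 CPM in O-NR 1 of the GMPs, with 8.58 to 8.92 CPM in the others. Nadsyn1 was 15.3 CPM in O-NR 1 of the CLPs, with 9.84 to 10.2 CPM in the others, and 11.1 CPM in O-NR 4 of the GMPs, with 14.6 to 15.0 CPM in the others. Qprt was 11.8 CPM in O-NR 4 of the HSCs of cohort 1, with 13.8 to 14.0 CPM in the others.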

How the results depend on the processing

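The number of members called between cell types was 5 for HSCs against CLPs, 7 for HSCs against GMPs and 7 for CLPs against GMPs. Over the 11 alternatives it ranged from 3 to 6, from 4 to 8 and from 3 to 7. It was 6 for HSCs against CLPs with edgeR's filterByExpr and 8 for HSCs against GMPs with total reads and with TMM from genes over 30 CPM. It was 3 for HSCs against CLPs in the O-NR libraries alone, 4 for HSCs against GMPs in the O-WT libraries alone and 3 for CLPs against GMPs with olfactory receptor reads as a covariate (chosen after seeing the data). Leaving out single libraries gave 4 to 7, 6 to 7 and 7 to 7. With the mouse as a replicate block the counts were 5, 7 and 7, and no member's call changed. In CLPs against GMPs, Nmnat1 (−0.02) turned to 0.36 with upper quartile scaling, 0.40 with total reads and 0.53 with TMM from genes over 30 CPM, and with the latter Nadsyn1, Nmnat3 and Qprt turned to 0.087, 0.027 and 0.59. The last 2 scalings were chosen after seeing the data. No treatment comparison called a member in any fit that left out a library (0 to 0). With 1 RUVr factor, which takes a hidden factor from the residuals, 1 member was called in cohort 1 for O-NR against O-WT (Nadk, −0.43) and 3 for O-NR-RC against O-WT (Nadk −0.45, Nadk2 −0.39 and Nampt −0.32), among 7.71% and 11.9% of all genes in place of 0%; the cause was not tested. The share of all genes called in CLPs against GMPs fell from 69.9% to 28.1% with the covariate. With the label number as a replicate block, a number that different mice share, 2 members (Nadk −1.20, Nadk2 −0.91) were called for the difference between cohorts, among 15.0% of all genes (0% without the block); correlations of same-numbered libraries ran from −0.85 to 0.80 in cohort 1. Depth limits Naprt and Qprt outside HSCs, with 15 to 79 reads in CLPs and GMPs of cohort 2.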
